A study of Triticum aestivum with 12 samples.

Results

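The roots of the wheat line Pavon-TL were compared with those of the cultivar Pavon76. The comparison took the 4 arrays labelled Pavon-TL and the 4 arrays labelled Pavon76, 8 of the 12 arrays in the series. They were matched by water condition. The main fit did not match them by replicate number, which was used only where the text says so. Both genotypes were sampled as root tissue of 18-day-old seedlings grown in sand. The 4 groups were Pavon-TL under water stress, Pavon76 under water stress, Pavon-TL under well water and Pavon76 under well water, with 2 arrays each. Water stress was watering every second day, and well water was daily watering. A further genotype, Null Control, had 4 arrays in the same 2 water conditions. The labels do not describe it, and it is given here only as a level beside the other genotypes.

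Pavon76 is a bread wheat cultivar. The labels do not explain the name Pavon-TL; published knowledge of the study describes it as a translocation line of Pavon76 that carries a chromosome segment from a wild wheatgrass. In such a line, a piece of a wheat chromosome is replaced by a piece from the relative, so that the wheat genes of the replaced piece are missing and counterparts from the relative take their place. Bread wheat is hexaploid and has homoeologous copies of most genes, which differ slightly in sequence. An Affymetrix array reads each transcript with a set of short probes designed on wheat sequences, and a probe set can read 1 copy or several. Transcript level and the fit of a transcript to its probes therefore cannot be told apart in the values of such a line. In whole root tissue, fewer cells of a type and less RNA per cell cannot be told apart either.

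The deposited values were on a log2 scale, and a difference of 1 is a factor of 2 in signal. The array medians lay between 5.89 and 5.93, and the first quartile of all values was 4.34. Low values cannot be read as absence, because no detection calls were used. The number of arrays limits the precision, and the labels do not say whether replicates came from separate plants, so p-values measure the spread between these arrays, which may be technical. Across probe sets, r was 0.980 to 0.987 between arrays of 1 group, and 0.991 to 0.994 between the Pavon-TL and the Pavon76 array of a matched pair (same water condition and replicate number). Genes marking other tissues differed little between the genotypes. The mean level of 33 leaf probe sets ranged over the arrays from 4.67 to 4.72 in Pavon-TL, from 4.61 to 4.76 in Pavon76 and from 4.61 to 4.75 in Null Control. For 23 grain probe sets it ranged from 4.69 to 4.76 in Pavon-TL, from 4.69 to 4.76 in Pavon76 and from 4.65 to 4.80 in Null Control. Not every member of these lists was low. The Rubisco large subunit rbcl (Ta.24976.1.S1_x_at) averaged 11.93 ± 0.25 in Pavon-TL and 12.01 ± 0.32 in Pavon76 (SD, n = 4 each). The avenin-like ALP of the grain list averaged 11.40 ± 0.27 in Pavon-TL and 11.36 ± 0.24 in Pavon76 (SD, n = 4 each). The root enzyme DMAS1, which makes the iron-chelating phytosiderophores of grasses, was between 9.65 and 12.21 in Pavon-TL roots and between 9.16 and 12.42 in Pavon76 roots.

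The first question was which transcripts differed between Pavon-TL and Pavon76 roots over both water conditions. Few did, and most of them were lower in Pavon-TL in the fit without a term for the replicate number. With that term, described further below, 179 probe sets were lower and 126 higher over both conditions, so the lean was weaker. For the average of the water stress and the well water difference, 103 of 61179 probe sets (0.168%) passed limma at a Benjamini-Hochberg adjusted p below 0.05, of which 84 (0.137%) were lower in Pavon-TL and 19 (0.0311%) were higher. With 1 of the 8 arrays left out, the higher count was 11 without Pavon-TL well water replicate 2, 13 without Pavon-TL water stress replicate 1 and 12 without any 1 of the other 6 arrays, while the lower count was between 63 and 74. Across all 61179 probe sets the median difference was 0.00, and the middle of the distribution, from the 5th to the 95th percentile, ran from -0.22 to 0.24. Against this narrow spread the called differences were large: 77 of the 84 lower probe sets and 14 of the 19 higher ones differed at least 2-fold. A difference of at least 4-fold was reached by 54 lower and 9 higher probe sets, and one of at least 16-fold by 22 lower and 4 higher ones. In all 103, the 4 Pavon-TL arrays did not overlap with the 4 Pavon76 arrays. Of all probe sets tested, 3.06% did not overlap. The 103 were chosen by their difference in these same arrays, so the lack of overlap is a description and not separate support.

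The lower probe sets had a median difference of -2.30, with sizes between 0.58 and 7.86. The median of their mean levels was 5.30 in Pavon-TL, 8.43 in Pavon76 and 8.15 in Null Control. In Pavon-TL, 56 of the 84 had a mean below 5.91, the median of all values, against 6 of the 84 in Pavon76. The higher probe sets had a median difference of 1.85, with sizes between 0.59 and 6.10. The median of their mean levels was 8.19 in Pavon-TL, 5.59 in Pavon76 and 7.31 in Null Control.

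**Figure D1:**
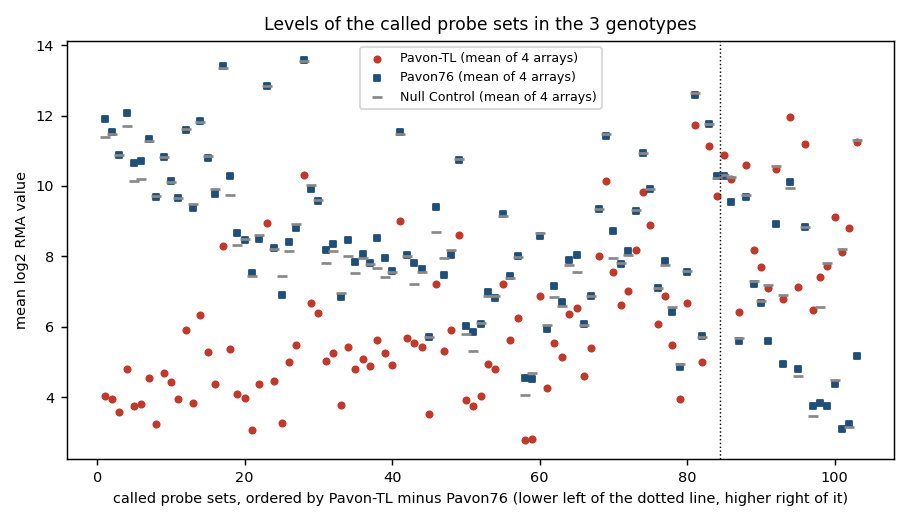
Mean log2 RMA value of each of the 103 called probe sets (vertical axis) in Pavon-TL (circles), Pavon76 (squares) and Null Control (dashes), means of 4 arrays each, ordered along the horizontal axis by the difference of Pavon-TL from Pavon76. Left of the dotted line the Null Control dashes lie nearer to the Pavon76 squares in 83 of 84 probe sets, while right of it they lie nearer to Pavon-TL in 8 of 19.

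The Null Control mean was nearer to Pavon76 than to Pavon-TL in 83 of the 84 lower probe sets, and within the range of the Pavon76 arrays in 68. The exception was Ta.7479.2.S1_x_at, chosen after its values were seen, with a mean of 7.56 ± 0.30 in Pavon-TL, 8.73 ± 0.09 in Pavon76 and 7.94 ± 0.40 in Null Control (SD, n = 4 each, over both water conditions). Its call did not hold without any 1 of the 8 arrays, where the limma adjusted p lay between 0.104 and 0.154. Among the 19 higher probe sets, the Null Control mean was nearer to Pavon76 in 11 and nearer to Pavon-TL in 8, and it was within the range of the Pavon-TL arrays in 7. The difference between these shares was not tested.

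Only 3 of the 103 called probe sets had a gene in the array annotation, which named a gene for 2.08% of the probe sets tested. Of the 1273 probe sets with a gene, 0.236% were called. All 3 were lower in Pavon-TL.

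The largest difference among them was that of LOC543418, a gene for which the annotation gives no function. Its probe set Ta.10508.2.S1_a_at had 3.69 and 3.18 in Pavon-TL and 10.42 and 11.17 in Pavon76 under well water, and 3.60 and 3.81 in Pavon-TL and 10.64 and 11.23 in Pavon76 under water stress. All 4 Pavon-TL arrays were below the first quartile of all values, while all Pavon76 arrays were high. The difference was -7.30 with an SE of 0.26 (limma adjusted p = 7.14e-06). Null Control averaged 10.89 ± 0.42 (SD, n = 4), at the level of Pavon76. A further probe set of the gene differed by -0.09 and was not called.

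LOC780661, also without a stated function, had 4.54 and 5.29 in Pavon-TL and 10.84 and 10.64 in Pavon76 under well water. Under water stress it had 4.43 and 4.50 in Pavon-TL and 10.92 and 10.88 in Pavon76. The genotypes were far apart in both conditions, and Null Control averaged 10.83 ± 0.08 (SD, n = 4). The probe set Ta.6293.1.A1_at differed by -6.13 with an SE of 0.15 (limma adjusted p = 9.19e-07), while the gene's 5 other probe sets differed by -0.23 to 0.18 and were not called.

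The third was wcH2B-8 (LOC543184), a histone H2B, 1 of the core histones around which DNA is wound. Its probe set Ta.7378.35.S1_x_at had 11.96 and 11.67 in Pavon-TL and 12.52 and 12.48 in Pavon76 under well water, and 11.77 and 11.48 in Pavon-TL and 12.60 and 12.76 in Pavon76 under water stress. The groups did not overlap, but the levels were close. The difference was -0.87 with an SE of 0.12 (limma adjusted p = 0.0316). The call did not hold without any 1 of the 8 arrays, where the adjusted p lay between 0.0583 and 0.204, nor in a fit of the 8 arrays alone, where it was 0.0970. The gene's 6 other probe sets differed by -0.22 to -0.04 and were not called. Histone genes are a family of near-identical copies, and the suffix x marks probes that can match several of them, so this value cannot be assigned to wcH2B-8 alone.

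The wcH2B-8 probe sets belong to Ta.7378, a transcript cluster of the array design with 38 probe sets, of which 2 were called. The other one, Ta.7378.25.S1_at, has no gene in the annotation and was chosen after its values were seen. It had 6.40 and 6.45 in Pavon-TL and 11.90 and 11.66 in Pavon76 under well water, and 6.55 and 5.89 in Pavon-TL and 11.92 and 11.87 in Pavon76 under water stress. The genotypes stood apart by -5.51 with an SE of 0.16 (limma adjusted p = 1.40e-06). Null Control was at 11.81 ± 0.23 (SD, n = 4).

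**Figure D2:**
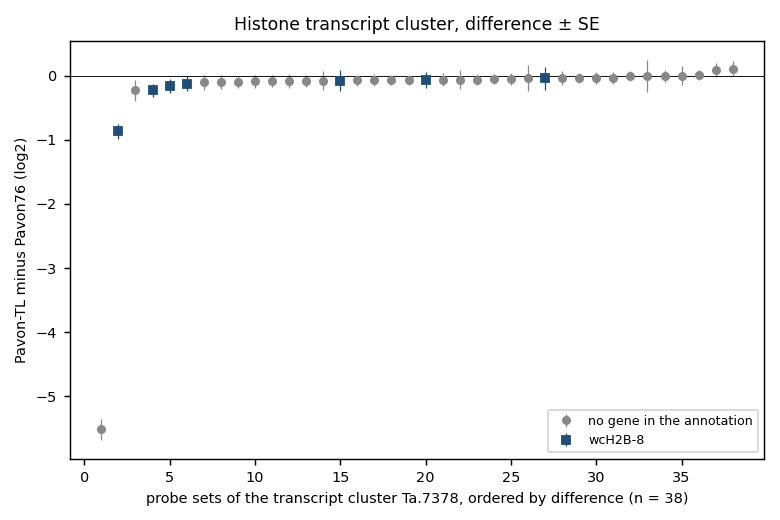
Difference of Pavon-TL from Pavon76 (log2, vertical axis), averaged over the water conditions, for the 38 probe sets of the transcript cluster Ta.7378, ordered by size along the horizontal axis. Squares are probe sets of wcH2B-8, circles those without a gene, and bars the SE from limma. A single circle at -5.51 lies far below all others.

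The 2 probe sets with the most negative differences had no gene. TaAffx.79196.1.S1_at had 4.90 and 3.58 in Pavon-TL and 11.33 and 12.05 in Pavon76 under well water, and 4.04 and 3.65 in Pavon-TL and 11.93 and 12.27 in Pavon76 under water stress. Its difference was -7.86 with an SE of 0.36, and Null Control averaged 11.38 ± 0.60 (SD, n = 4). Ta.25043.1.S1_at averaged 3.95 ± 0.23 in Pavon-TL, 11.52 ± 0.25 in Pavon76 and 11.46 ± 0.43 in Null Control (SD, n = 4 each), a difference of -7.57 with an SE of 0.18. Both were high in every Pavon76 and Null Control array and low in every Pavon-TL array. Other probe sets were very high in Pavon76 and at a middle level in Pavon-TL. Ta.5399.2.S1_at, chosen after its values were seen, averaged 8.28 ± 0.37 in Pavon-TL, 13.40 ± 0.14 in Pavon76 and 13.36 ± 0.29 in Null Control (SD, n = 4 each). Its difference was -5.12 with an SE of 0.21.

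The 19 higher probe sets all lacked a gene, and they showed both positions of Null Control. The largest difference was that of Ta.28803.1.A1_at. It had 11.19 and 11.48 in Pavon-TL and 5.52 and 4.59 in Pavon76 under well water, and 11.73 and 10.65 in Pavon-TL and 5.23 and 5.31 in Pavon76 under water stress. Here Pavon76 was the low genotype, since Null Control averaged 11.32 ± 0.19 (SD, n = 4). The difference of 6.10 had an SE of 0.27. Ta.3211.1.S1_at and TaAffx.64850.1.A1_at, chosen after their values were seen, showed the same order. The first averaged 8.13 ± 0.48 in Pavon-TL, 3.09 ± 0.20 in Pavon76 and 8.22 ± 0.30 in Null Control, and the second 7.74 ± 0.50 in Pavon-TL, 3.75 ± 0.16 in Pavon76 and 7.82 ± 0.09 in Null Control (SD, n = 4 each).

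In other probe sets Pavon-TL was the high genotype. TaAffx.56180.1.S1_at had 8.74 and 8.93 under well water and 8.52 and 9.06 under water stress in Pavon-TL. In Pavon76 the 4 arrays lay between 2.99 and 3.50. Null Control was as low as Pavon76, at 3.16 ± 0.09 (SD, n = 4), and the difference of Pavon-TL from Pavon76 was 5.58 with an SE of 0.17. Ta.11279.1.A1_at, chosen after its values were seen, averaged 9.12 ± 0.30 in Pavon-TL, 4.37 ± 0.08 in Pavon76 and 4.49 ± 0.18 in Null Control (SD, n = 4 each). Its difference was 4.76 with an SE of 0.13.

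**Figure D3:**
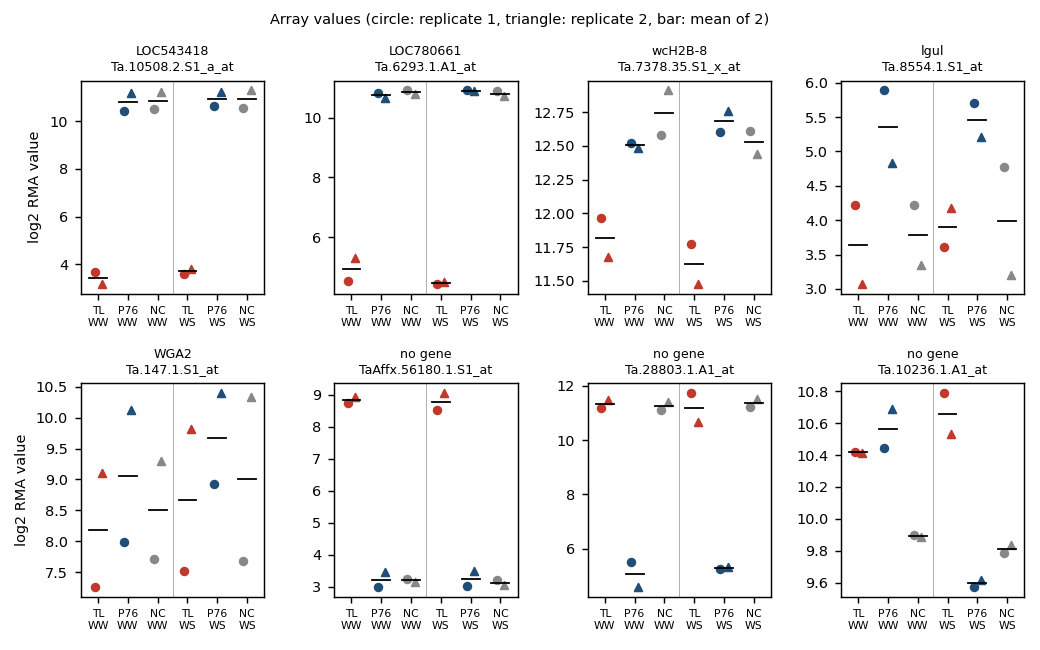
Log2 RMA values (vertical axes, each with its own range) of 8 probe sets in every array, by genotype (TL, Pavon-TL; P76, Pavon76; NC, Null Control) and water condition (WW, well water; WS, water stress); circles are replicate 1, triangles replicate 2 and bars the mean of both. LOC543418 and LOC780661 are low in Pavon-TL alone, TaAffx.56180.1.S1_at is high in Pavon-TL alone, and Ta.28803.1.A1_at is low in Pavon76 alone. The wcH2B-8 probe set is high in every genotype and somewhat lower in Pavon-TL.

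The called probe sets belonged to 93 transcript clusters of the array design. Of these clusters, 34 had more than 1 probe set and 9 had more than 1 call, with 19 calls among them. In most clusters with more than 1 probe set, the call thus concerned a single one. The 99 probe sets of clusters with a call that were not called had a median difference of -0.04, and 91 of them differed by less than 0.5. More of the 99 belong to Ta.7378 (38 probe sets, 2 called) than to any other cluster. They were kept for not being called, which favours small differences, so these values are a description. In the cluster Ta.994, chosen after its values were seen, 3 of 4 probe sets were called, with differences of -6.90, -6.89 and -1.74. The last of these, Ta.994.3.S1_x_at, averaged 2.80 ± 0.11 in Pavon-TL and 4.54 ± 0.27 in Pavon76 (SD, n = 4 each). Its call did not hold without any 1 of 7 of the 8 arrays, where the limma adjusted p reached 0.112.

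Some transcripts are read by a set of unique probes and by a companion set, marked with the suffix x, whose probes can also match other sequences. There were 9 such pairs in which the unique set was called. The companion had the same sign in 9 of them, was called in 7 and differed less in 8. The pairs were chosen by a call in the unique set, which favours a smaller difference in the companion. In 1 of the 8, Ta.994.1.S1_at, the differences were nearly equal, at -6.90 in the unique set and -6.89 in the companion. For Ta.11443.1.S1_at the difference was -5.53 in the unique set and -3.17 in the companion. For TaAffx.37159.2.S1_at, the pair that went the other way, it was -1.49 in the unique set and -2.06 in the companion. Over the whole array, 0.222% of all 6769 probe sets with the suffix x were called, and 0.163% of all 48453 sets of unique probes. These counts include sets that have no partner of the other kind.

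The next question was whether the difference between the genotypes held in each water condition. Under water stress, 64 probe sets (0.105%) passed limma, 54 lower (0.0883%) and 10 higher (0.0163%) in Pavon-TL. Under well water, 69 (0.113%) passed, 60 lower (0.0981%) and 9 higher (0.0147%) in Pavon-TL. Leaving out an array moved the well water count by more than 1.5 times in 3 cases: it was 40 without Pavon-TL well water replicate 1, 40 without Pavon-TL well water replicate 2 and 43 without Pavon76 well water replicate 2. The higher count under water stress was 6 without Pavon76 water stress replicate 1. The arrays of the 2 conditions are separate. They shared 61 calls, 95.3% of those under water stress and 88.4% of those under well water. All 69 well water calls had the same sign under water stress, and 63 of the 64 water stress calls had the same sign under well water.

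The sizes are given as a description. The water stress calls had a median size of 3.30 under water stress and 3.35 under well water, and the well water calls one of 3.10 under water stress and 3.24 under well water. LOC543418 differed by -7.23 under water stress and by -7.36 under well water, each with an SE of 0.37. LOC780661 differed by -6.43 under water stress and by -5.83 under well water, each with an SE of 0.21. For wcH2B-8 the difference was -1.05 under water stress (limma adjusted p = 0.117) and -0.68 under well water (limma adjusted p = 1.00), and neither passed. With the replicate block (a term for the replicate number) its water stress difference passed (limma adjusted p = 0.0155), but not without Pavon76 water stress replicate 2 (0.158) or Pavon-TL water stress replicate 2 (0.0826). Over all 61179 probe sets the difference under water stress correlated with that under well water at r = 0.496, and at r = 0.239 without the called ones. These are correlations across probe sets of disjoint arrays, and probe sets are not independent replicates.

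**Figure D4:**
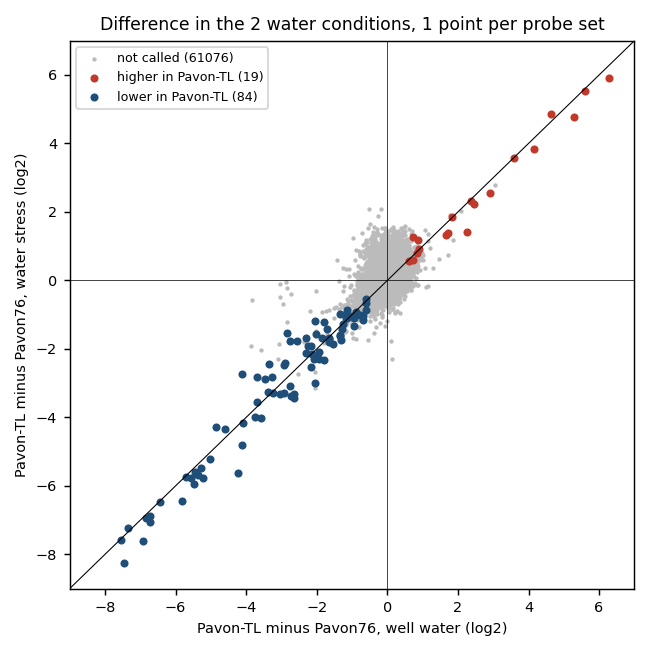
Difference of Pavon-TL from Pavon76 (log2) under well water (horizontal axis) and under water stress (vertical axis), 1 point for each of 61179 probe sets. The 84 lower and 19 higher called probe sets lie along the diagonal, with the same sign in both conditions for all 103. They were called on the average of these conditions, which favours the same sign.

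No probe set passed the test of the interaction, which is the water stress value of the difference between the genotypes minus its well water value. Its count was 0 of 61179 (0%) by limma without the replicate block and 0 with it, while 1451 probe sets (2.37%) without the block and 3460 (5.66%) with it had an unadjusted p below 0.05. Among the 103 called probe sets the interaction had a median size of 0.28 and reached 1.39 at most, and 6 had an unadjusted p below 0.05. With the block, the count was 34 without Pavon-TL water stress replicate 2 and 1 without Pavon76 water stress replicate 1.

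A single call under water stress was not matched in sign under well water. Ta.10236.1.A1_at, chosen after its values were seen and without a gene, had 10.79 and 10.53 in Pavon-TL and 9.58 and 9.62 in Pavon76 under water stress. Under well water it had 10.42 and 10.41 in Pavon-TL and 10.44 and 10.69 in Pavon76. The low arrays were the 2 of Pavon76 under water stress. The difference was 1.06 with an SE of 0.12 under water stress (limma adjusted p = 0.0171) and -0.15 under well water. The interaction was 1.21 (limma adjusted p = 1.00 without the block, 0.632 with it) and did not pass. Null Control averaged 9.85 ± 0.05 (SD, n = 4) over both conditions.

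Same-numbered arrays deviated together from their group means, and a fit with the replicate number as a block took this shared part out of the spread. With the block, 305 probe sets (0.499%) passed for the average over the water conditions, 179 lower (0.293%) and 126 higher (0.206%) in Pavon-TL. All 103 calls made without the block were among them. The count with the block was 168 without Pavon-TL well water replicate 2, 184 without Pavon76 well water replicate 1 and 201 without Pavon76 well water replicate 2. The higher count moved more than the lower one: it was 37 without Pavon-TL well water replicate 2, 51 without Pavon76 well water replicate 1, 61 without Pavon76 well water replicate 2 and 63 without Pavon76 water stress replicate 2, while the lower count was between 131 and 191. The 202 probe sets called only with the block had smaller differences. Of these, 107 were higher in Pavon-TL, with a median of 0.74 and 11 of at least 2-fold, and 95 were lower, with a median of -0.80 and 24 of at least 2-fold. The Null Control mean was nearer to Pavon-TL in 28 of the 107 and in 26 of the 95.

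Under water stress the block moved the count to 237 (0.387%), 113 lower (0.185%) and 124 higher (0.203%) in Pavon-TL. Under well water it moved the count to 126 (0.206%), 106 lower (0.173%) and 20 higher (0.0327%). The conditions then shared 112 calls, 47.3% of those under water stress and 88.9% of those under well water. Of the 237 water stress calls, 206 had the same sign under well water, and their median size was 1.28 under water stress and 0.73 under well water. All 126 well water calls had the same sign under water stress, with a median size of 1.89 under water stress and 2.07 under well water. The water stress count depended on single arrays. It was 433, with 292 higher, without Pavon-TL water stress replicate 2. It was 133, with 43 higher, without Pavon-TL water stress replicate 1, and 124, with 45 higher, without Pavon76 water stress replicate 2. The higher count under well water was 12 without Pavon-TL well water replicate 2 and 13 without any 1 of the other 3 well water arrays.

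With the block, 8 of the 1273 probe sets with a gene (0.628%) were called for the average, 5 of them only with the block. The glyoxalase lgul (LOC542984), a lactoylglutathione lyase that uses glutathione to detoxify methylglyoxal, was lower in Pavon-TL. Its probe set Ta.8554.1.S1_at had 4.21 and 3.07 in Pavon-TL and 5.89 and 4.83 in Pavon76 under well water, and 3.61 and 4.17 in Pavon-TL and 5.70 and 5.20 in Pavon76 under water stress. The groups did not overlap, and Null Control, at 3.88 ± 0.74 (SD, n = 4), was at the level of Pavon-TL. The difference was -1.64 with an SE of 0.43 (limma adjusted p = 0.830 without the block and 0.0214 with it), and the gene's other probe set differed by -0.18.

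WGA2 (LOC543494), a wheat germ agglutinin, which is a lectin that binds chitin, was also lower with the block. It had 7.26 and 9.10 in Pavon-TL and 7.99 and 10.12 in Pavon76 under well water, and 7.52 and 9.82 in Pavon-TL and 8.93 and 10.40 in Pavon76 under water stress. The genotypes overlapped, because replicate 2 was higher than replicate 1 in every group. In each of the 4 matched pairs Pavon-TL was the lower one. Of all probe sets tested, 17.7% had the same sign in all 4 pairs. The blocked fit called WGA2 on these same arrays, so its pairs are a description. The difference was -0.94 with an SE of 0.86 without the block (limma adjusted p = 1.00) and of 0.17 with it (limma adjusted p = 0.0425).

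The other 3 have no stated function. LOC543430 was lower by the blocked fit, averaging 6.96 ± 0.42 in Pavon-TL, 7.52 ± 0.40 in Pavon76 and 7.04 ± 0.33 in Null Control (SD, n = 4 each). It differed by -0.55 (limma adjusted p = 1.00 without the block and 0.0121 with it), and the gene's other probe set by -0.11. LOC542989 was higher by the blocked fit, at 7.35 ± 0.90 in Pavon-TL, 5.84 ± 0.34 in Pavon76 and 5.83 ± 0.12 in Null Control (SD, n = 4 each). Its difference was 1.51 (limma adjusted p = 0.817 without the block and 0.0283 with it), and every Pavon-TL array was above every Pavon76 array. LOC606326 was higher by the blocked fit, at 8.42 ± 0.63 in Pavon-TL and 7.74 ± 0.52 in Pavon76 (SD, n = 4 each), with overlapping arrays. Its difference was 0.69 (limma adjusted p = 1.00 without the block and 0.0247 with it). LOC100037518 was called with the block under water stress alone of the contrasts tested, with 8.64 and 9.42 in Pavon-TL and 7.60 and 8.02 in Pavon76. Its difference there was 1.22 (limma adjusted p = 1.00 without the block and 0.0129 with it), and under well water it was -0.06.

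None of these blocked calls held in every fit that left out an array. Out of 8 fits that each left out 1 array, the blocked adjusted p was 0.05 or more in 7 for WGA2, in 6 for LOC606326, in 5 for lgul, in 5 for LOC542989 and in 4 for LOC543430, and in 3 for LOC100037518 under water stress. It reached 0.197 for WGA2, 0.137 for lgul and 0.152 for LOC542989. In a blocked fit of the 8 arrays alone, LOC542989 (limma adjusted p = 0.0569) and LOC606326 (limma adjusted p = 0.0733) did not pass.

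Genes of known pathways were then read by 16 lists of gene symbols. The lists held 146 probe sets of 67 genes, of which 63 had a positive and 83 a negative difference of Pavon-TL from Pavon76, with a median of -0.01. The median over all probe sets was 0.00. Without the block 0 passed as higher and 1 as lower, and with the block 0 as higher and 2 as lower. The lower ones were wcH2B-8 and, with the block alone, lgul. An unadjusted p below 0.05 was reached by 4 of the 146, against 4.07% of all probe sets. The arrays of the genotypes did not overlap in 3 of the 146, against 3.06% of all.

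**Figure D5:**
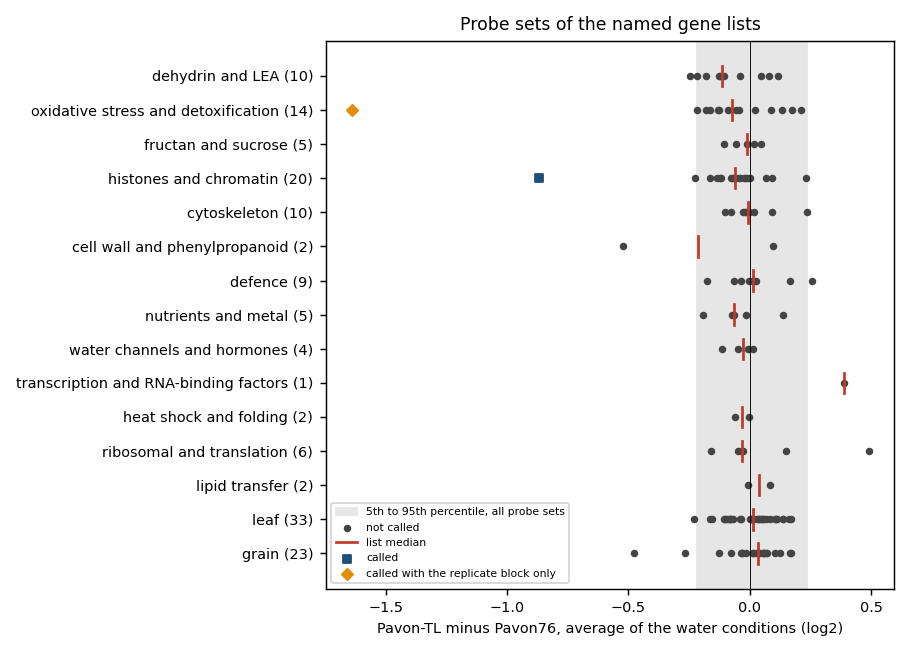
Difference of Pavon-TL from Pavon76 (log2, horizontal axis), averaged over the water conditions, for each probe set of 15 gene lists with at least 1 probe set (rows, number of probe sets in brackets). Squares passed limma without the block, diamonds with the block only, dark points neither; red bars are list medians and the grey band holds the 5th to 95th percentile of all probe sets, -0.22 to 0.24.

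Among genes of water shortage, the dehydrin and LEA list, whose proteins protect cells during drying, had 10 probe sets with a median of -0.11, 3 positive and 7 negative. Rab15, a dehydrin induced by abscisic acid, had 8.15 and 8.70 in Pavon-TL and 8.28 and 8.47 in Pavon76 under well water, and 8.44 and 8.52 in Pavon-TL and 8.78 and 9.02 in Pavon76 under water stress. In this probe set, Ta.2704.1.S1_at, the genotypes overlapped under well water and stood apart by -0.42 under water stress, which did not pass (limma adjusted p = 1.00). The gene's 2 other probe sets differed by -0.25 and -0.22 on average and were not called. The first of these, Ta.2704.1.S1_x_at, differed by -0.26 under well water and by -0.24 under water stress. Fructan and sucrose enzymes had 5 probe sets, 2 positive and 3 negative, with a median of -0.01. The fructan exohydrolase 1-FEH averaged 10.82 ± 0.09 in Pavon-TL and 10.92 ± 0.20 in Pavon76 (SD, n = 4 each). Water channels and hormones were represented by 4 probe sets of gibberellin 20-oxidases, which make gibberellins, with a median of -0.03.

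Among detoxification genes, 14 probe sets had a median of -0.08, 5 positive and 9 negative. Beside lgul, catalase CAT1, which breaks down hydrogen peroxide, averaged 5.95 ± 0.11 in Pavon-TL and 5.74 ± 0.21 in Pavon76 (SD, n = 4 each), a difference of 0.21 with an unadjusted limma p of 0.0421 that did not pass adjustment. GSTZ1, a glutathione transferase of the zeta class, averaged 10.09 ± 0.50 in Pavon-TL and 10.25 ± 0.21 in Pavon76 (SD, n = 4 each). Defence genes had 9 probe sets, 5 positive and 4 negative, with a median of 0.01. PR5, a thaumatin-like pathogenesis protein, averaged 5.08 ± 0.37 in Pavon-TL and 4.92 ± 0.21 in Pavon76, and the chemically induced wci averaged 6.81 ± 0.09 in Pavon-TL and 6.87 ± 0.23 in Pavon76 (SD, n = 4 each).

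The histone and chromatin list had 20 probe sets, 3 positive and 17 negative, with a median of -0.06. They belong to 6 genes, and 7 of them to wcH2B-8, so they are not independent of one another. The histone H2A gene wcH2A-2 averaged 9.36 ± 0.21 in Pavon-TL and 9.43 ± 0.16 in Pavon76, and Hmgb3, a high mobility group protein that bends DNA, 12.22 ± 0.40 in Pavon-TL and 12.24 ± 0.24 in Pavon76 (SD, n = 4 each). Neither difference passed. The zinc finger protein WZF1, the only transcription factor listed, had 12.23 and 11.62 in Pavon-TL and 12.22 and 11.81 in Pavon76 under well water, and 12.69 and 11.64 in Pavon-TL and 11.37 and 11.24 in Pavon76 under water stress. The groups stood apart under water stress by 0.86, which did not pass (limma adjusted p = 1.00).

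Tubulin genes of the cytoskeleton had 10 probe sets with a median of -0.01, 3 positive and 7 negative, and a range from -0.10 to 0.23. The beta-tubulin tubb1 averaged 13.91 ± 0.11 in Pavon-TL and 13.89 ± 0.08 in Pavon76 (SD, n = 4 each). Of the cell wall list, COMT1, a methyltransferase of lignin synthesis, averaged 13.38 ± 0.55 in Pavon-TL and 13.28 ± 0.48 in Pavon76 (SD, n = 4 each). XTH, a xyloglucan enzyme that remodels the wall, averaged 7.21 ± 0.32 in Pavon-TL and 7.73 ± 0.44 in Pavon76 (SD, n = 4 each), a difference of -0.52 that did not pass (limma adjusted p = 1.00).

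In the nutrient and metal list, 5 probe sets had a median of -0.06, 1 positive and 4 negative. DMAS1 had 12.21 and 9.65 in Pavon-TL and 12.42 and 9.83 in Pavon76 under well water, and 10.78 and 10.14 in Pavon-TL and 11.66 and 9.16 in Pavon76 under water stress. Replicate 1 was above replicate 2 in all 4 groups, and the genotypes overlapped. The difference was -0.08 with an SE of 1.00 without the block and of 0.29 with it. PEAMT1, a methyltransferase on the way to choline, averaged 11.39 ± 0.24 in Pavon-TL and 11.25 ± 0.11 in Pavon76 (SD, n = 4 each).

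The 2 heat shock and folding probe sets had a median of -0.03, the 6 ribosomal and translation ones -0.03 and the 2 of lipid transfer proteins 0.04. The kinase and signalling list had 0 annotated genes. The 33 leaf probe sets, 28 of them of the Rubisco large subunit rbcl, had a median of 0.01, with 20 values above and 13 below 0. The 23 grain probe sets had a median of 0.03, with 15 values above and 8 below 0. In that list the beta-amylase BMY1, which releases maltose from starch, had the smallest p. It averaged 4.95 ± 0.28 in Pavon-TL, 5.43 ± 0.27 in Pavon76 and 4.98 ± 0.23 in Null Control (SD, n = 4 each), a difference of -0.48 with an unadjusted limma p of 0.0129 that did not pass adjustment. The beta-glucosidase GLU1A, in no list, averaged 10.89 ± 0.35 in Pavon-TL, 11.50 ± 0.22 in Pavon76 and 11.06 ± 0.66 in Null Control (SD, n = 4 each), a difference of -0.61 with an SE of 0.29 that did not pass either.

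A large difference alone was not enough to pass. In total 160 probe sets (0.262%) differed at least 2-fold, and 69 of these were not called. They leaned the same way as the calls, with 54 negative and 15 positive differences. In 39 of the 69 the arrays of the genotypes did not overlap, against 3.06% of all probe sets tested. The 69 were chosen by their difference in these same arrays, so the lack of overlap is a description and not separate support.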

How the data were processed

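Total RNA from root tissue was hybridised to Affymetrix wheat arrays, 1 sample per array. The deposited values are log2 RMA values that the authors computed, per the submitters' processing notes and the range of the values (2.32 to 14.8); the version is not given in the sources used here. Of 61290 probe sets in the table, 111 Affymetrix controls were not analysed.

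A linear model of 6 group means was fitted to all 12 arrays (limma 3.58.1, R 4.3.3), in which the Null Control arrays entered only the estimate of the spread. Contrasts gave Pavon-TL minus Pavon76 on average, in each water condition, and their difference (the interaction). Tests were two-sided, with Benjamini-Hochberg adjustment over 61179 probe sets and calls below 0.05. The SE is limma's, and the SD is over the 4 arrays of a genotype. The code of the fit without the block was tested, for the average difference only, on simulated arrays with independent noise. The blocked fit was not tested in this way. An unmarked value comes from the fit without the replicate block.

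The labels do not say what a replicate number marks. Deviations from group means correlated between same-numbered arrays with r from 0.606 to 0.778 in 6 of 6 pairs of groups, so by this check the numbers pair the samples. Blocked values are given where they change the call of a named gene or move a count by more than 1.5 times. Changed calls of probe sets without a gene are given only in the counts. Alternatives were the block, the 8 arrays alone, a filter on low means, a variance trend, median centring and leaving out each array.

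Genes came from the platform annotation, which gave 1 gene for 1273 probe sets (771 genes, 770 found in the RefSeq table of IWGSC CS RefSeq v2.1) and none for 59906. Named genes were called probe sets with a gene (up to 15 in each direction without the block and 10 with it), the listed genes with the highest means, the 10 named genes with the smallest p that did not pass, 5 for the interaction, a further 13 genes, and the 2 largest differences in each direction without a gene. Of the genes taken by these rules, those not described in the report are given in the closing section or only in its counts. Lists were patterns on symbols, from which 12 genes of another kind were moved or dropped. Members, lists and genes were chosen with earlier results of these data known.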

Additional observations from a re-analysis of the deposited data

Results flagged for a closer look

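For 7 of the 69 probe sets whose differences are listed by name, the sign of the difference between Pavon-TL and Pavon76 in both matched pairs under water stress was opposite to that in both pairs under well water. This is 10.1% of them, against 6997 (11.4%) of all 61179 probe sets and 12 of the 38 of the histone cluster Ta.7378. Each value below is the water stress difference minus the well water difference on the log2 scale. The interaction was tested with limma, and none of the 7 passed without the block or with it. Groups of 2 arrays allow no check for a single array that stands apart.

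The largest was Ta.10236.1.A1_at, at 1.21, with an unadjusted limma p of 8.08e-05. The alpha-amylase inhibitor ATI (LOC543286), a seed protein, had -0.68, with 4.15 and 3.73 in Pavon-TL and 4.59 and 4.51 in Pavon76 under water stress, and 4.62 and 4.63 in Pavon-TL and 4.58 and 4.53 in Pavon76 under well water. The beta-tubulin Tubb5 had -0.45 and the grain storage gene GAG56D had -0.43. The histone H2A gene wcH2A-2 had -0.24, the avenin-like ALP had 0.12, and the histone H2A gene wcH2A-9 had -0.048.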

How the results depend on the processing

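The counts of calls were, for the average, water stress and well water differences in that order, 91, 50 and 47 in a fit of the 8 arrays alone, 86, 54 and 59 among probe sets with a mean above the median, 101, 61 and 68 with a variance trend, and 102, 65 and 70 with centred arrays, against 103, 64 and 69 as reported. With the replicate block, by which the numbers pair the samples, they were 305, 237 and 126, and with the block on the 8 arrays alone 268, 185 and 112. Leaving out an array gave 75 to 86 calls for the average, 43 to 62 under water stress and 40 to 63 under well water, and 75 to 83 of the calls for the average were among the 103. With the block and an array left out, which was added once the data had been seen, the ranges were 168 to 342, 124 to 433 and 89 to 135. The interaction count was 0 under every other alternative and 0 to 34 under that one. A lone array left in a group was assumed to vary like the others.

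Of 17 called differences given by name, 3 lost the call under some alternative. These were wcH2B-8 and Ta.7479.2.S1_x_at without any 1 of the 8 arrays, and Ta.994.3.S1_x_at without any 1 of 7. Of 69 named differences, 23 changed sign without some array and 0 under another alternative, and none of the 23 had passed. Their ranges were -0.15 to 0.34 for COMT1, -0.038 to 0.075 for tubb1, -0.060 to 0.023 for TUBA, -0.015 to 0.53 for Glc1, -0.15 to 0.018 for wci, -0.021 to 0.18 for Em, -0.092 to 0.16 for ALP, -0.040 to 0.18 for Gli-8, -0.45 to 0.32 for FKBP70, -0.18 to 0.17 for hsp16.9A, -0.032 to 0.029 for wcH2A-9, -0.31 to 0.046 for wcH2B-6, -0.25 to 0.083 for rbcl (Ta.24976.1.S1_x_at), -0.046 to 0.37 for PsbO, -0.72 to 0.57 for DMAS1, -0.39 to 0.065 for GSTZ1, -0.14 to 0.080 for Eif4B, -0.10 to 0.086 for GA20ox1d, -0.20 to 0.10 for GA20OX1-A, -0.060 to 0.13 for rbcl (TaAffx.128414.37.S1_at), -0.15 to 0.025 for wcH2A-2, -0.015 to 0.34 for PR5 and -0.20 to 0.16 for Hmgb3. The cause of these changes was not tested. The signal over background is not known, and RMA values compress differences at the low end.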
